A study of Mus musculus with 2 samples.

Results

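Mural cells wrap the endothelial tubes of blood vessels: pericytes lie on capillaries and smooth muscle cells around larger vessels. The cells described here were 316 of 10581 filtered barcodes of a Dll1+ tumor (2.99%, 95% interval 2.67 to 3.33) and 173 of 11121 of a Dll1- tumor (1.56%, 1.33 to 1.80), 489 of 21702 in all. Each held at least 5 unique molecular identifiers (UMIs, counted molecules) of Rgs5, at least 2 of the 6 genes Pdgfrb, Notch3, Cspg4, Des, Kcnj8 and Abcc9, no UMI of Cdh5 and fewer than 2 of Krt5. They came from 2 droplet single-cell RNA libraries, each made from CD45-negative live cells of 1 untreated mouse mammary tumor. CD45 marks leukocytes, and Dll1 is a membrane-bound ligand of Notch receptors; the labels say neither how Dll1 status was set nor the strain and age of the mice. Both tumors were digested with enzymes and stained for CD45, for the endothelial protein CD31 and for the erythroid protein Ter119. Each group is 1 library, so the values below carry no test. A difference between the libraries is a difference between 2 tumors and cannot be told apart from a difference between animals or preparations. Intervals are at 95% (exact Clopper-Pearson for shares, exact Poisson for levels, exact binomial for ratios) and cover counting error only.

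Pericytes are drawn to new vessels by platelet-derived growth factor from endothelium, which binds the receptor Pdgfrb on their surface, and they share a basement membrane with it. Notch3 on mural cells is activated by ligands on neighbouring endothelial and mural cells and is known for keeping vascular smooth muscle differentiated. Smooth muscle cells carry the contractile proteins Acta2, Tagln, Myh11 and Cnn1, while capillary pericytes are known for the KATP channel made of Kcnj8 and Abcc9, which sets their membrane potential. In tumors, vessels are often thinly or unevenly covered by such cells.

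The values that chose the cells are a description and support nothing. Rgs5, a regulator of G protein signalling (ENSMUSG00000026678, chr1:169655501-169695813, plus strand, mm10), was at 5156 CPM (5070.2 to 5242) in the Dll1+ and 3391 CPM (3303 to 3481) in the Dll1- mural cells. CPM is the UMIs of a gene per 1000000 UMIs of the same cells, summed over them; it is not per length, so levels of different genes are not compared. Median Rgs5 counts per cell were 40.5 and 28 UMIs. Pdgfrb was at 752 and 352 CPM in the same order, Notch3 at 343 and 223 CPM, Cspg4 (NG2, a surface proteoglycan) at 237 and 159.7 CPM and Des (desmin, an intermediate filament) at 409.9 and 270.4 CPM. All 6 marker genes were found in 134 of 316 Dll1+ cells (42.4%) and 28 of 173 Dll1- cells (16.2%), at median depths of 7316 and 6465 UMIs. Just inside the Rgs5 limit, at 5 UMIs, lay 11 Dll1+ and 4 Dll1- cells, and just outside, at 4 UMIs, lay 10 and 1. A single rule, no Cdh5 UMI, kept out 8 and 2 further barcodes.

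Genes that the rule had not used also set these cells apart. Setting the mural cells against endothelial, fibroblast, epithelial, Krt5-expressing and leukocyte cells gated by their own markers, the 15 genes with the highest ratio over the best of those classes were Rgs5, Higd1b, Cox4i2, Olfr558, Des, Trpc6, Trarg1, Gucy1b1, H2-M9, Rem1, Gucy1a1, Tbx20, Itga7, Notch3 and Map3k7cl. Rgs5, Des and Notch3 of these were part of the rule, and the other classes were gated to be low in Rgs5. Higd1b, a mitochondrial protein known from pericytes, was at 673 and 312 CPM in Dll1+ and Dll1- mural cells. Its highest level in another class was 1.37 and 0.0432 CPM. Cox4i2, a cytochrome oxidase subunit, was at 327 and 151 CPM against at most 1.13 and 1.03 CPM. Gucy1a1 and Gucy1b1, the subunits of the nitric oxide receptor, were at 151 and 76.8 CPM and at 152 and 75.6 CPM, with no other class above 5.07 CPM. Trpc6, a calcium-permeable channel, was at 102 and 84.1 CPM and at most 0.564 CPM elsewhere. Since the cells were chosen on Rgs5 and marker counts, these ratios describe the choice, with no test.

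**Figure D1:**
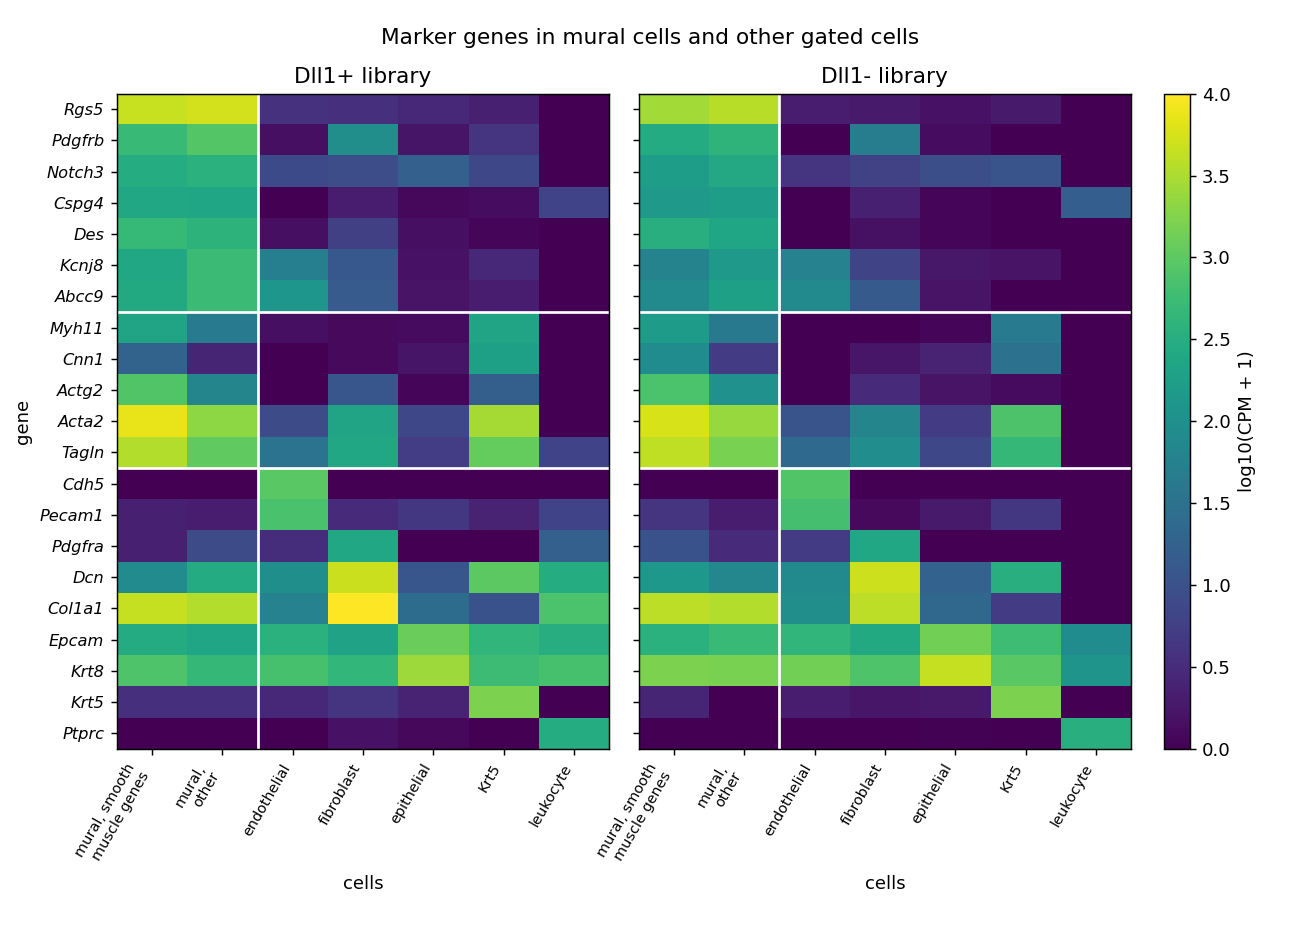
Levels of 21 marker genes as log10 of CPM plus 1 (colour), with genes in rows and gated cells in columns, for each library; white lines part rule markers, smooth muscle genes and markers of other cells. Rgs5 stood at 5156 and 3391 CPM in all mural cells, Cdh5 at 0 by the rule, and Epcam and Krt8 were present in mural, endothelial and fibroblast cells alike.

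RNA of other cells was measured in the mural cells as well. The 13 endothelial markers summed to 571 and 420.5 CPM, with 10 and 9 of them detected, against 8488 and 7503 CPM in endothelial-gated and 25.5 and 20.6 CPM in epithelial-gated cells. Cdh5 (by the rule), Cldn5 and Tie1 were at 0 UMIs in both libraries. The 13 leukocyte markers summed to 25.2 CPM in Dll1+ and 278 CPM in Dll1- mural cells (68 and 460 UMIs, 10 and 5 genes detected), of which S100a8 gave 17 and 447 UMIs. In mural cells without an Epcam UMI they were at 18.2 and 18.5 CPM, and Ptprc, Cd3e and Cd79a were at 0 in all mural cells. Pdgfra, the defining receptor of fibroblasts, was found in 6 of 316 and 4 of 173 cells, although the summed fibroblast list, led by Col1a1, stood at 7218 and 6006 CPM. Fibroblast-gated cells were at 39186 and 29649.6 CPM. An Epcam UMI was present in 88 of 316 Dll1+ cells (27.8%) and 52 of 173 Dll1- cells (30.1%). The 12 epithelial markers together were at 2018 CPM in Dll1+ and 5165 CPM in Dll1- mural cells. Endothelial-gated cells, which should lack them, were at 2814 and 4442 CPM, fibroblast-gated cells at 1654 and 2617 CPM, and epithelial-gated cells at 9718 and 13959 CPM.

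The libraries held 117230907 UMIs over 13819 barcodes (Dll1+) and 135960457 over 13097 (Dll1-), and the filters kept 10581 and 11121 barcodes, with minima of 1000 UMIs and 500 genes and a maximum of 20% mitochondrial UMIs. Mural cells of the Dll1+ library summed to 2693186 UMIs and those of the Dll1- library to 1652829, so the Dll1- values rest on fewer molecules. Their median mitochondrial shares were 3.76% and 2.60%. Of the mural barcodes 3 and 1 also occurred in the other library (0.949% and 0.578%), beside 65 of 10581 and 65 of 11121 kept barcodes (0.614% and 0.584%).

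Epcam-bearing mural cells were also deeper, with medians of 9998 and 16723 UMIs against 6305.5 and 5630 in the 228 Dll1+ and 121 Dll1- cells without an Epcam UMI. In those Epcam-free cells the epithelial list fell to 196 and 379 CPM, with Cdh1 and Elf3 at 0 in the Dll1- cells. A doublet score marked 42 of the 316 (13.3%) and 38 of the 173 mural cells (22.0%), 39 and 36 of them with an Epcam UMI. Over all kept barcodes it marked 896 of 10581 (8.47%) and 989 of 11121 (8.89%), numbers set in advance by an assumed doublet rate. Because epithelial RNA took a larger part of the Dll1- mural sum, most ratios of the libraries below are given for all mural cells and then for the Epcam-free cells. The part of epithelial RNA in each ratio was not tested beyond that.

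The first question was how cells with smooth muscle genes differed from the other mural cells. Cells with at least 5 UMIs of Myh11, Cnn1 and Actg2 together numbered 68 of 316 in the Dll1+ library (21.5%, 17.1 to 26.5) and 54 of 173 in the Dll1- library (31.2%, 24.4 to 38.7). Among the Epcam-free cells the shares were 20.2% and 29.8%. Myh11 (ENSMUSG00000018830, chr16:14194535-14291372, minus strand) encodes the smooth muscle myosin heavy chain, Cnn1 (ENSMUSG00000001349, chr9:22099216-22109630, plus strand) calponin, an actin-binding regulator of contraction, and Actg2 (ENSMUSG00000059430, chr6:83512905-83536265, minus strand) the enteric form of smooth muscle actin. The 3 genes were not found in equal parts. Actg2 was present in all 68 and all 54 of these cells, Myh11 in 48 and 35, Cnn1 in 9 and 21, and all 3 together in 7 and 16. Actg2 alone, without the other two, carried 18 Dll1+ and 14 Dll1- cells.

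The sum had no gap at the limit. Its median in the cells above the limit was 9 UMIs in the Dll1+ and 8 in the Dll1- library, and its highest value 49 and 39. Just inside, at 5 UMIs, were 12 and 10 cells, and just outside, at 4 UMIs, were 15 and 15. At 0 were 146 of 316 Dll1+ cells (46.2%, 40.6 to 51.9) and 51 of 173 Dll1- cells (29.5%, 22.8 to 36.9). Cells above the limit were deeper, with medians of 10117 and 7995.5 UMIs against 6185.5 and 5630 in the rest, which was not tested as a source of the split. An Epcam UMI was in 22 of the 68 and 66 of the other 248 Dll1+ cells (32.4% and 26.6%), and in 18 of the 54 and 34 of the other 119 Dll1- cells (33.3% and 28.6%). At a minimum of 10 UMIs the shares were 10.4% and 13.3%, with the Dll1- library again above the Dll1+ library.

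**Figure D2:**
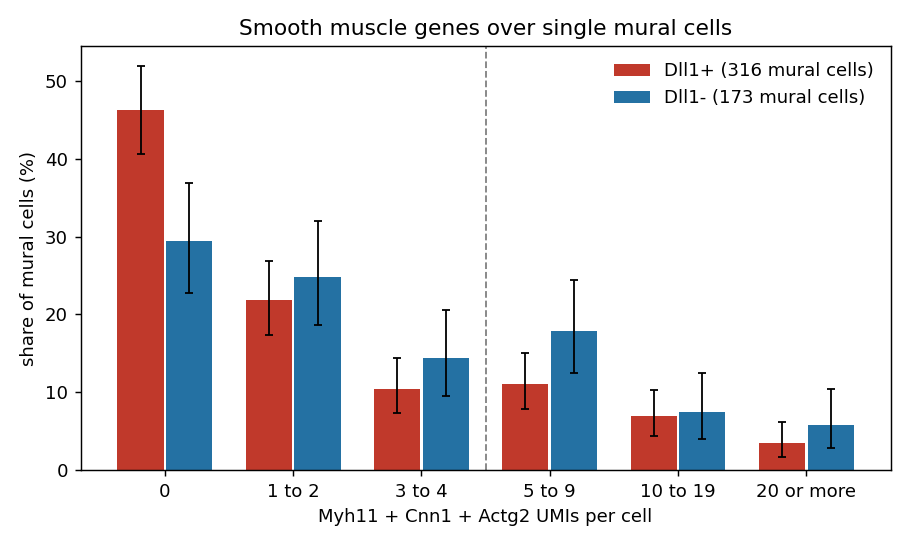
Share of mural cells (%, bars; 95% exact intervals of counting error) by the summed UMIs of Myh11, Cnn1 and Actg2 per cell, for the Dll1+ (316 cells) and Dll1- library (173 cells); the dashed line is the limit between 4 and 5 UMIs. The bar at 0 stands at 46.2% and 29.5%. Shares were 10.4% and 14.5% at 3 to 4 UMIs, and 11.1% and 17.9% at 5 to 9. Bars cover unequal ranges of UMIs, so their heights do not show whether there is a second peak.

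Contractile genes that had not been used in the split were higher in these cells of both tumors. Ratios are log2 of CPM plus 1, cells with smooth muscle genes over the other mural cells, and genes count as measured where the mean of the 4 sums is at least 10 CPM. Acta2, smooth muscle alpha actin (ENSMUSG00000035783, chr19:34241090-34255590, minus strand), was at 7315 against 2115 CPM in the Dll1+ and 5732 against 2407 CPM in the Dll1- library (log2 1.79 and 1.25). Tagln, transgelin, was at 3473 against 1053 CPM in the Dll1+ and 4081 against 1544 CPM in the Dll1- library (log2 1.72 and 1.40). The Acta2 median per cell was 70.5 against 7 UMIs in the Dll1+ and 53 against 13 in the Dll1- library. Acta2 was still found in 206 of 248 and 114 of 119 cells below the limit, so the other mural cells were lower, not empty. With each cell thinned to 2000 UMIs, Acta2 was at 8784 against 2052 CPM in the Dll1+ and 7093 against 2867 CPM in the Dll1- library.

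Of 28 measured contractile genes, 13 were at least 1.5-fold higher in both libraries and 0 were lower in both, where 1.24% of 8301 genes were higher and 3.34% lower. Their median log2 ratios were 0.68 and 0.59, against -0.11 and -0.03 over all genes measured. Myl9, the regulatory light chain that myosin needs to contract, was at 1464 against 638 CPM in the Dll1+ and 907 against 490.5 CPM in the Dll1- library (log2 1.20 and 0.89). Tpm2, a tropomyosin of the thin filament, was at 1428 against 645 CPM in the Dll1+ and 1016 against 586 CPM in the Dll1- library (log2 1.15 and 0.79). The thin-filament and signalling genes Tpm1, Ppp1r14a, Mustn1 and Lmod1 had log2 ratios from 0.70 to 1.43 in the Dll1+ and from 0.64 to 0.88 in the Dll1- library. Genes near level were Cald1 (caldesmon; log2 0.39 and 0.04), Smtn (smoothelin; 0.04 and 0.07) and Srf (-0.21 and 0.04), the factor that switches on many contractile genes.

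Serum response factor binds the CArG box, so the promoters of the contractile genes are shown where an exact match to it was found. RefSeq (GRCm38.p6) gave promoter windows for 32 of 38 contractile genes, the 3 genes of the split and Des counted in. Of their 39 windows of 250 bases before the start, 4 held a CArG box, against 482 of 32851 windows of all genes (1.47%). Only the exact form was searched, CC and GG around a run of A or T bases, so boxes that differ by a base were not counted. The box reads the same way on both strands, no other motif was searched, and a match is not a bound site. Capitals mark the boxes; the bases run 5′ to 3′ on the gene's strand, ending 1 base before the start.
Myl9 (chr2:156775214-156775463, plus strand): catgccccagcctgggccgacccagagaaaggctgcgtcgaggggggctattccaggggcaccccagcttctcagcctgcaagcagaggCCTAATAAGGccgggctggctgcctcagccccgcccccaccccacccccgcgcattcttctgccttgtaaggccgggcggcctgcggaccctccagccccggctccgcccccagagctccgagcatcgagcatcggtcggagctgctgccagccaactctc
Myl6 (chr10:128493010-128493259, minus strand): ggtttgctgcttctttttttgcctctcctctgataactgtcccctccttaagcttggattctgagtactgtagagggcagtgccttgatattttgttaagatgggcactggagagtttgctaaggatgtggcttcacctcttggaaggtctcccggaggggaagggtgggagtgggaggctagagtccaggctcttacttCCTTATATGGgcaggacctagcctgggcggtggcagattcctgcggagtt
Vcl (chr14:20929148-20929397, plus strand): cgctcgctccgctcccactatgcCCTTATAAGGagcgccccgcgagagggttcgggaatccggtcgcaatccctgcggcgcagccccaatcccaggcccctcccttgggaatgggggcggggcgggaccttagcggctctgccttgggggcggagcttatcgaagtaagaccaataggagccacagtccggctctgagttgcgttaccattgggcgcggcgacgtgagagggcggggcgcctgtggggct
Srf (chr17:46556163-46556412, minus strand): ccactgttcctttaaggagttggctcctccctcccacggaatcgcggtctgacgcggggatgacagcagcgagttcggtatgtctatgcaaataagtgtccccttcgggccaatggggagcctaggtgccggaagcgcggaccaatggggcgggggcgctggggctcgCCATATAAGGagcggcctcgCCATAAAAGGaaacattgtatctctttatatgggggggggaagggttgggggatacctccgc

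Counted from the RefSeq start of each window, the box lay 161 to 152 bases upstream in Myl9, 50 to 41 in Myl6 and 227 to 218 in Vcl. Srf held a pair at 82 to 73 and 62 to 53. The Myl6 window lies inside the annotated gene (chr10:128490860-128494145, minus strand), so its box is upstream of an internal start only. Of these genes Myl9 was at least 1.5-fold higher in cells with smooth muscle genes of both libraries. Myl6, a myosin light chain (log2 0.45 and 0.41), and Vcl, vinculin (0.52 and 0.19), were not past that fold in both. The windows of Acta2, Cnn1 and Des held no match to the exact form within 250 bases, and 0 of 24 windows of 20 pericyte genes held one. Boxes that differ by a base were not searched.

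Several genes of capillary pericytes were lower in the same cells. Kcnj8, the pore of the KATP channel (ENSMUSG00000030247, chr6:142564837-142571614, minus strand), was at 237 against 528 CPM in the Dll1+ and 60.8 against 143 CPM in the Dll1- library (log2 -1.15 and -1.22). Abcc9, its sulfonylurea receptor subunit, whose gene is the neighbour of Kcnj8 on the same strand (ENSMUSG00000030249, chr6:142587862-142702315, minus strand), was at 269.9 against 535 CPM in the Dll1+ and 81.1 against 184 CPM in the Dll1- library (log2 -0.99 and -1.17). Both genes helped to choose the mural cells, but not the split. Thinned to 2000 UMIs a cell, Kcnj8 was at 246 against 648 and 92.6 against 150.4 CPM.

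Steap4, a metalloreductase, was at 68.1 against 233 CPM in the Dll1+ and 17.1 against 60.3 CPM in the Dll1- library (log2 -1.76 and -1.76). Of 19 ion channel and calcium handling genes 5 were at least 1.5-fold lower and 0 higher in both libraries, and of 24 other pericyte genes 5 were lower and 0 higher, beside 3.34% lower and 1.24% higher of all genes. Gucy1a1 (log2 -0.86 and -0.90) and the endothelin receptor Ednra (-0.69 and -1.14) were lower in both, while the tensile and adhesive genes Des (0.36 and 0.53) and Mcam (0.10 and 0.15) were not. Rgs5 itself was near level, 4629.8 against 5375 CPM in the Dll1+ and 2819.8 against 3754 CPM in the Dll1- library (log2 -0.22 and -0.41).

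**Figure D3:**
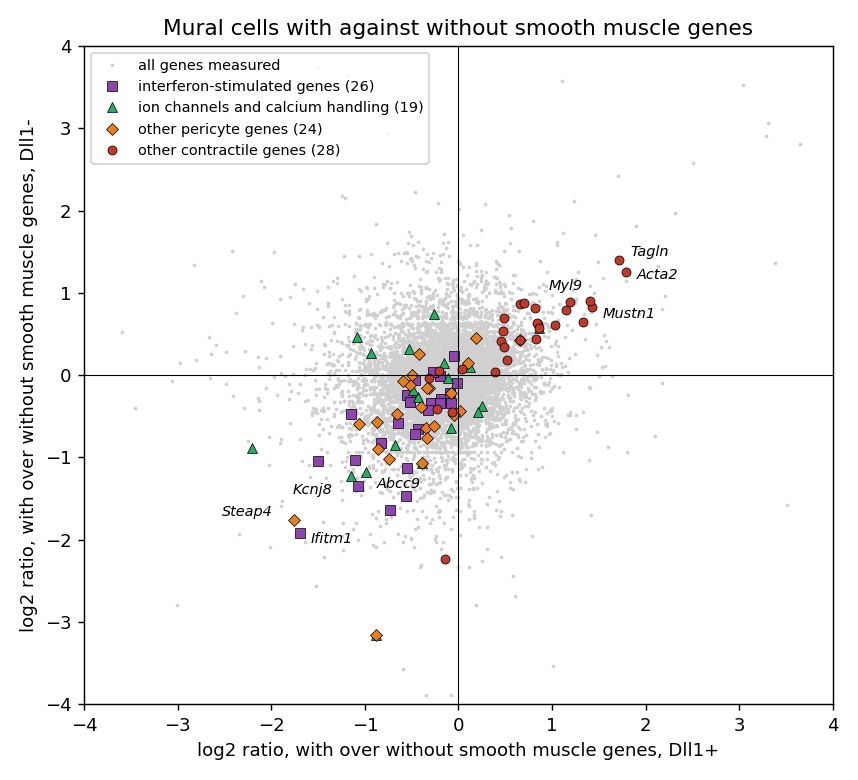
Log2 ratio of mural cells with over without smooth muscle genes in the Dll1+ (x axis) and Dll1- library (y axis); grey points are all genes measured, of which 8 lie outside the axes, and coloured points are 4 gene lists. Acta2 (1.79, 1.25) and Tagln lie at the upper right, and Kcnj8 (-1.15, -1.22), Abcc9, Steap4 and Ifitm1 at the lower left.

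Part of the interferon-stimulated genes also stood lower in cells with smooth muscle genes. Of 26 genes of that list 7 were at least 1.5-fold lower in both libraries and 0 were higher, beside 3.34% and 1.24% of all genes. Ifitm1, a membrane protein that restricts viral entry, was at 94.6 against 308 CPM in the Dll1+ and 46.8 against 179 CPM in the Dll1- library (log2 -1.69 and -1.91). Outside that list, Cxcl9, an interferon-gamma induced chemokine, was at 161 against 385 CPM in the Dll1+ and 14 against 57.4 CPM in the Dll1- library (log2 -1.25 and -1.96). Cmpk2, also outside it (log2 -2.02 and -2.08), Rsad2 (-1.07 and -1.35) and Ifit3 (-1.5 and -1.05) shared that direction. The abundant Ifitm3 differed little, -0.09 and -0.22. Of 16 hypoxia genes 3 were lower in both and 0 higher, by the same fold.

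The 12 genes with the highest mean ratio of both libraries included genes of the cytoskeleton and matrix. Fhl1, a LIM protein of muscle, was at 56.8 against 20 CPM in the Dll1+ and 76.4 against 22.7 CPM in the Dll1- library (log2 1.46 and 1.70), Cav1, the coat protein of caveolae, at 83.2 against 34.7 CPM in the Dll1+ and 54.6 against 11.9 CPM in the Dll1- library (log2 1.24 and 2.11) and Tnc, the matrix protein tenascin-C, at 169 against 37.9 CPM in the Dll1+ and 90.4 against 35.6 CPM in the Dll1- library (log2 2.13 and 1.32). Ntn4, a laminin-related netrin, had log2 ratios of 1.89 and 1.81, and Fbxl22 2.51 and 2.58. Ankrd1 had 3.38 and 1.36 over 15 and 8 cells, Adarb1 1.70 and 2.42, Kcnab1 2.20 and 0.96, and the potassium channel Kcnk3 2.21 and 1.48. Kcnk3 turned to a mean log2 ratio of -1.40 when every cell was thinned to 2000 UMIs. Cardiac actin Actc1 (3.31 and 3.06) came from 7 and 4 cells, and Scgb2b27 and Glycam1 from few cells, with 80 of 95 Scgb2b27 UMIs in 1 Dll1+ cell. In all, 25 genes stood higher by 2-fold or more in both libraries (0.301% of 8301) and 49 lower (0.59%). These counts moved far with the processing, to 53 and 123 without doublets, 126 and 318 after thinning and 11 and 10 with 10 CPM added in place of 1.

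The genes with the lowest mean ratio were mostly thinly counted. Nr1h3, an oxysterol receptor, was at 24.0 against 70.5 CPM in the Dll1+ and 4.68 against 32.6 CPM in the Dll1- library (log2 -1.52 and -2.57), and Cdh2, N-cadherin, at 8.83 against 35.3 CPM in the Dll1+ and 3.12 against 10.9 CPM in the Dll1- library (log2 -1.88 and -1.53). Xylt1 had log2 ratios of -1.44 and -2.21 and Tom1l2 -1.64 and -2.03. Sap130, Cyp7b1 and Fbxo42 had 0 UMIs in the 54 Dll1- cells, which allows up to 4.68 CPM, and 14, 11 and 14 UMIs in the other 119. Their Dll1+ log2 ratios were only -0.35, -0.59 and -0.08. Saa3, an acute-phase protein, came among the other mural cells from 11 Dll1+ cells, 1 of which held 334 of 505 UMIs.

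The second question was how mural cells of the Dll1+ tumor differed from those of the Dll1- tumor. Each ratio sets Dll1+ over Dll1- on the log2 scale, again of CPM plus 1, with the interval of the ratio without the added 1, and measured genes have a mean of both libraries of at least 10 CPM. Of 8359 genes measured, 419 (5.01%) stood higher by 2-fold or more in the Dll1+ mural cells and 199 (2.38%) stood lower, and the median log2 ratio of all genes was 0.16. In the Epcam-free cells 6.8% of the same genes passed 2-fold upward and 1.81% downward. Of those 419 genes 226 were also at least 2-fold higher in the Epcam-free cells, and of the 199 lower genes 73 were also lower there. Dll1 itself followed the labels, with 28 UMIs (10.4 CPM) in the Dll1+ and 1 in the Dll1- mural cells. In the Epcam-free cells it was at 4 and 0 UMIs, the latter allowing up to 3.96 CPM. Epithelial-gated cells had 48.7 and 3.93 CPM.

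Genes of the KATP channel were higher in the Dll1+ tumor. Kcnj8 was at 442 CPM (417 to 468) in Dll1+ and 111 CPM (95.8 to 129) in Dll1- mural cells, a log2 ratio of 1.98 (1.76 to 2.22). In the Epcam-free cells it was at 572 and 186 CPM, a log2 ratio of 1.61 (1.36 to 1.88). Abcc9 was at 457 CPM (432 to 483) and 144 CPM (126 to 163), 1.66 (1.47 to 1.87), and 569.6 and 227 CPM in the Epcam-free cells, 1.32. Both stood in the rule, which asked for a UMI of 2 of 6 genes, so their levels helped to choose the cells. The part of that choice in these ratios was not tested. The Dll1+ library also had a smaller share of cells with smooth muscle genes, whose part in these ratios was not tested either. Among the cells below the smooth muscle limit alone, Kcnj8 had a log2 ratio of 1.87 and Abcc9 of 1.54.

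The other markers of the rule were closer. Pdgfrb, the receptor of platelet-derived growth factor, had a log2 ratio of 1.09 (0.96 to 1.23) and of 0.73 in the Epcam-free cells. Notch3 (0.62), Des (0.60), Rgs5 (0.60) and Cspg4 (0.56) shrank to 0.29, 0.20, 0.17 and 0.10.

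Other pericyte genes were mostly higher in the Dll1+ tumor. Of 24 measured, 19 were at least 1.5-fold higher and 0 lower, where 17.4% of all genes were higher and 5.84% lower; in the Epcam-free cells 11 were higher and 0 lower (19.1% and 5.44% of all genes). Their median log2 ratio was 0.82 and then 0.57. Vtn, vitronectin, an adhesive glycoprotein of vessel walls, was at 163 CPM (148 to 179) and 28.4 CPM (20.9 to 37.8), a log2 ratio of 2.47 that did not shrink in the Epcam-free cells (2.60, 2.06 to 3.27). It was found in 158 of 316 and 34 of 173 cells. Steap4 was at 185 and 43.6 CPM (log2 2.06; 1.92 in the Epcam-free cells) and Tbx2, a T-box transcription factor, at 122 and 52.6 CPM (log2 1.19; 0.64 in the Epcam-free cells).

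Higd1b and Cox4i2, which led the genes that set mural cells apart, were at 673 and 312 CPM (log2 1.11; 0.64 in the Epcam-free cells) and 327 and 151 CPM (log2 1.12; 0.66 in the Epcam-free cells). Art3 stood at 212 and 92.6 CPM (log2 1.19; 0.77 in the Epcam-free cells). Gja4, the connexin that couples mural to endothelial cells, was at 248 and 188 CPM and level in the Epcam-free cells, 309 and 310.5 CPM. Heyl, a Notch-induced repressor, was at 118 and 98.0 CPM (log2 0.26; -0.24 in the Epcam-free cells), and Lhfp at 428 and 406 CPM (log2 0.08; -0.31 in the Epcam-free cells).

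Receptors and relays of vasoactive signals had the highest median of the lists with at least 6 genes measured. Of 18 measured, 12 were at least 1.5-fold higher and 0 lower in the Dll1+ cells (median log2 0.89), and 10 and 0 in the Epcam-free cells (0.67). Among all genes 17.4% were higher and 5.84% lower, and 19.1% and 5.44% in the Epcam-free cells. Agtr1a, the angiotensin II receptor, was at 70.2 CPM (60.5 to 80.9) and 16.3 CPM (10.8 to 23.8), 2.04 and then 1.69. Ednra, the endothelin receptor of smooth muscle, was at 208 and 103 CPM (log2 1.00; 0.73 in the Epcam-free cells). Ednrb, the second endothelin receptor, was at 66.8 and 8.47 CPM (log2 2.84; 2.26 in the Epcam-free cells), found in 67 Dll1+ and 9 Dll1- cells. Endothelial-gated cells carried more of it, 245 and 145 CPM, and the part of endothelial RNA in the mural value was not tested.

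Adra2a, an adrenergic receptor, was at 109 and 50.2 CPM (log2 1.10; 0.80 in the Epcam-free cells). Ramp1, a partner of the calcitonin receptor-like receptor, was at 157 and 81.1 CPM (log2 0.95; 0.74 in the Epcam-free cells). Downstream, the nitric oxide receptor subunits Gucy1a1 and Gucy1b1 were at 151 and 76.8 CPM (log2 0.97; 0.77 in the Epcam-free cells) and 152 and 75.6 CPM (log2 1.00; 0.58 in the Epcam-free cells), and Pde5a, which breaks down their product, at 105 and 51.4 CPM (log2 1.01; 0.61 in the Epcam-free cells). The sphingosine receptor S1pr3 shrank from 0.82 to 0.28, and Pde3a, Prkg1 and Ptgir lay between 0.34 and 0.48 and then between 0.04 and 0.12.

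**Figure D4:**
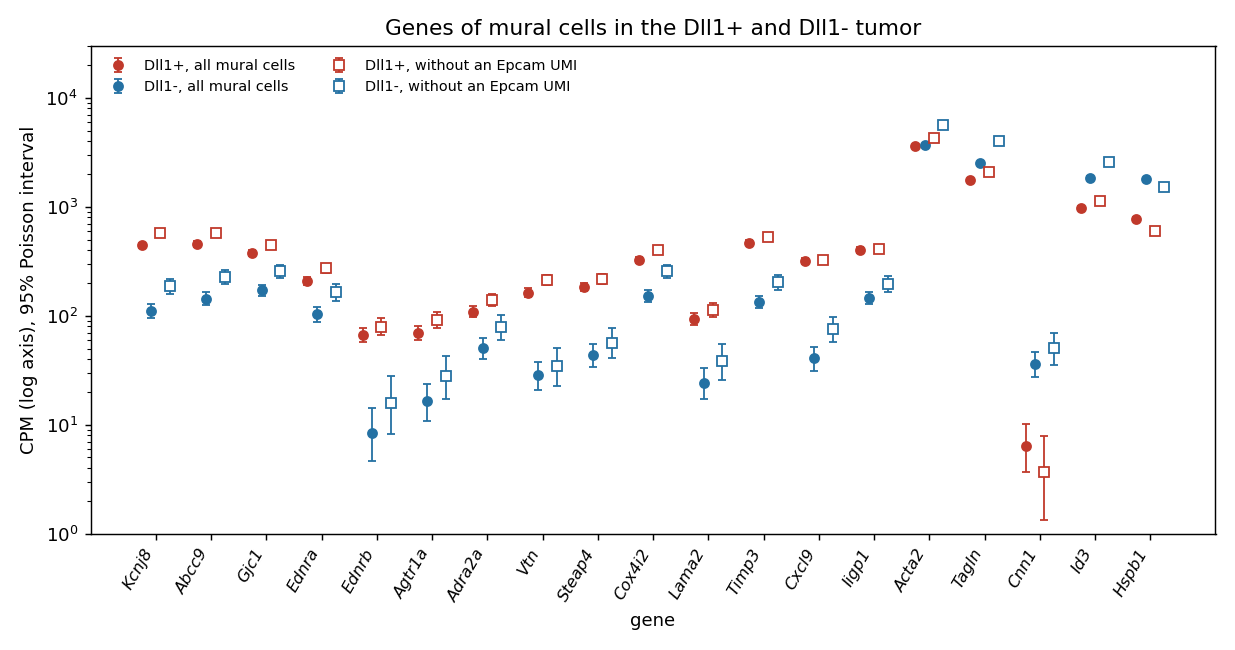
Level of 19 genes in CPM (log axis; points, 95% Poisson intervals) in mural cells of the Dll1+ (red) and Dll1- library (blue), for all mural cells (filled circles) and those without an Epcam UMI (open squares). For the 14 genes from Kcnj8 to Iigp1 both red symbols lie above both blue ones (Kcnj8 at 442 and 111 CPM); Tagln, Cnn1, Id3 and Hspb1 lie the other way.

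Ion channels and pumps followed in part. Of 19 measured, 11 were at least 1.5-fold higher and 1 lower in the Dll1+ cells, beside 17.4% and 5.84% of all genes. In the Epcam-free cells 7 were higher and 1 lower, beside 19.1% and 5.44% of all genes. Atp1b2, a subunit of the sodium pump, was at 131 and 56.3 CPM (log2 1.20; 0.69 in the Epcam-free cells). Gjc1, a connexin, was at 375 and 172 CPM (log2 1.12; 0.80 in the Epcam-free cells). Cacna1c, the L-type calcium channel of smooth muscle, was not past the fold, 29.3 and 33.3 CPM (log2 -0.18; -0.57 in the Epcam-free cells), nor was Trpc6, 102 and 84.1 CPM (log2 0.27; -0.22 in the Epcam-free cells). The lower gene was Gja1, an epithelial and mural connexin, with 0 and 2 UMIs left in the Epcam-free cells.

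Contractile genes were near the shares of all genes when all mural cells were used (17.4% higher and 5.84% lower). Of 29 measured, 4 were at least 1.5-fold higher and 2 lower in all Dll1+ mural cells. In the Epcam-free cells 2 were higher and 7 lower, beside 19.1% and 5.44% of all genes. The median log2 ratios were 0.22 and -0.17. The sign of the median thus turned on the cells used. Acta2 was at 3646 CPM (3574 to 3719) and 3697 CPM (3605 to 3791), a log2 ratio of -0.02, and at 4241 and 5641 CPM in the Epcam-free cells, -0.41 (-0.47 to -0.36). Tagln was lower in the Dll1+ cells in both counts, 1766 and 2528 CPM (-0.52) and 2083 and 4035 CPM (-0.95). Cnn1 was at 6.31 CPM (3.68 to 10.1) and 35.7 CPM (27.2 to 46.0), 17 against 59 UMIs in 12 and 25 cells, a log2 ratio of -2.33 and of -3.46 in the Epcam-free cells. Krt5-gated cells had 187 and 30.4 CPM of Cnn1, and their part in the mural values was not tested.

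Actg2 was at 286 and 355 CPM (log2 -0.31; -0.73 in the Epcam-free cells) and Myh11 at 92.5 and 87.7 CPM (log2 0.07; -0.59 in the Epcam-free cells). Tpm1, Map3k7cl and Mustn1 were lower in the Epcam-free Dll1+ cells (log2 -0.62, -0.65 and -0.80), whereas Myl9 and Mylk, the myosin light chain and its kinase, were level (-0.03 and -0.01). Hspb1, a small heat shock protein of the actin cytoskeleton, was the contractile list's lowest in all mural cells, at 769.7 and 1791 CPM (log2 -1.22; -1.33 in the Epcam-free cells). Synpo2, an actin-binding protein, was the highest, at 93.9 and 32.7 CPM (log2 1.5; 1.31 in the Epcam-free cells).

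Most basement membrane genes were higher in all Dll1+ mural cells, and fewer in the Epcam-free cells. Of 16 measured, 10 were at least 1.5-fold higher and 0 lower, and 6 and 0 in the Epcam-free cells. The shares of all genes at that fold were 17.4% higher and 5.84% lower, and 19.1% and 5.44% in the Epcam-free cells. Lama2, the laminin chain of muscle and vessel walls, was at 93.9 and 24.2 CPM (log2 1.91; 1.54 in the Epcam-free cells), Hspg2, perlecan, at 188 and 84.1 CPM (log2 1.15; 0.88 in the Epcam-free cells), and Nid1, nidogen, at 503 and 241 CPM (log2 1.06; 0.68 in the Epcam-free cells). Col4a1, the network collagen, was at 3712 and 2321 CPM (0.68) and 4521 and 3634 CPM in the Epcam-free cells (0.31). Interstitial matrix genes had 12 of 34 higher and 0 lower, but 7 higher and 5 lower in the Epcam-free cells, where Col1a1 was at 4324 and 5747 CPM (-0.41) and Col8a1 at 395 and 785 CPM (-0.99). The protease inhibitor Timp3 was at 469 and 134 CPM (log2 1.80; 1.39 in the Epcam-free cells), and the protease Adamts1 was lower, at 112 and 182 CPM (log2 -0.70; -1.37 in the Epcam-free cells).

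Most genes of Notch signalling, which Dll1 activates, lay within 1.5-fold in the Epcam-free cells. Of 9 measured receptors, fringes and cofactors 4 were at least 1.5-fold higher in the Dll1+ cells and 0 lower, beside 17.4% and 5.84% of all genes. In the Epcam-free cells 2 were higher and 1 lower, where 19.1% of all genes were higher and 5.44% lower. Notch3 fell from 0.62 to 0.29, with 404 and 330.3 CPM left in the Epcam-free cells, and Notch1 went from 0.64 to 0.19. Of 6 measured target genes 1 was higher and 0 lower, and 0 and 0 in the Epcam-free cells, with a median log2 ratio of -0.10. Hes1, a repressor that Notch switches on, stood at 156 and 102 CPM and then at 148 and 144 CPM (0.04, -0.29 to 0.38). Nrarp, a feedback inhibitor, went from 0.58 to 0.16. Jag1, the ligand that mural cells themselves carry, was at 91.3 and 91.4 CPM and 114 and 131 CPM. Dlk1, a non-canonical ligand, was higher, at 62.4 and 15.7 CPM (log2 1.92; 1.72 in the Epcam-free cells).

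Growth factor axes of the vessel wall were mixed. Pdgfa was at 534 and 533 CPM and at 629 and 824 CPM in the Epcam-free cells (-0.39). Angpt1, the mural ligand of the endothelial Tie2 receptor, was rare (38 and 10 UMIs, and 29 and 7 in the Epcam-free cells), and Angpt2, its antagonist, was at 80.2 and 78.0 CPM (log2 0.04; -0.42 in the Epcam-free cells). Angptl2 was at 185 and 68.4 CPM (log2 1.42; 1.11 in the Epcam-free cells) and the VEGF co-receptor Nrp1 at 159 and 80.5 CPM (log2 0.98; 0.65 in the Epcam-free cells). Vegfa was at 46.8 and 57.5 CPM and fell to 29 and 8 UMIs in the Epcam-free cells.

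Chemokines went both ways. Cxcl9, which draws T cells, was at 319 CPM (298 to 341) and 40.5 CPM (31.4 to 51.5), log2 2.95, and at 328 and 75.3 CPM in the Epcam-free cells (2.11). It was carried by 84 of 316 and 24 of 173 cells, with up to 102 and 19 UMIs in 1 cell. Endothelial-gated cells showed the same order, 413 and 55.6 CPM, as did epithelial-gated cells, 60.3 and 0.571 CPM. Cxcl10 was at 503 and 123 CPM (log2 2.03; 1.01 in the Epcam-free cells) and the eotaxin Ccl11 at 113 and 30.3 CPM (log2 1.87; 2.64 in the Epcam-free cells). Cxcl1, a neutrophil attractant, was lower in the Dll1+ cells at 917 and 1547 CPM (log2 -0.75; -1.12 in the Epcam-free cells), with Ccl2 at -0.31 and -0.95 and Il6 at -0.49 and -1.25.

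The interferon-stimulated list had 7 of 26 genes higher by 1.5-fold and 2 lower, with the same counts in the Epcam-free cells, near the shares of all genes (17.4% and 5.84%, then 19.1% and 5.44%; medians 0.12 and 0.19). The GTPase Iigp1 was at 404 and 146 CPM (log2 1.46; 1.06 in the Epcam-free cells) and Gbp2 at 99.9 and 55.7 CPM (log2 0.83; 1.32 in the Epcam-free cells), whereas Bst2 was at 558 and 1048 CPM (log2 -0.91; -0.76 in the Epcam-free cells) and Isg15 at 591 and 822 CPM (log2 -0.48; -0.49 in the Epcam-free cells). Immediate early genes, which answer handling and digestion as well as signals, were 0 higher and 5 lower of 18, and 0 and 3 in the Epcam-free cells. Atf3 went from -1.01 to -0.30, and Nr4a1 from -0.74 to -1.09. Id3, a target of BMP signalling, was lower in the Dll1+ cells at 984 CPM (947 to 1022) and 1854 CPM (1789 to 1921), -0.91, and -1.18 (-1.27 to -1.09) in the Epcam-free cells.

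Genes of cell division were found in mural cells of both tumors. At least 3 of 14 G2 and M phase genes were found in 62 of 316 Dll1+ (19.6%, 15.4 to 24.4) and 29 of 173 Dll1- mural cells (16.8%, 11.5 to 23.2). With cells thinned to 2000 UMIs (9 and 6 cells were too shallow), 12.7% (9.19 to 17) and 9.58% (5.58 to 15.1) passed, with overlapping intervals. In the Epcam-free cells they were 13.1% and 9.57%. Thinned shares of the gated classes were 9.36% and 8.61% for endothelial, 2.82% and 3.36% for fibroblast and 8.26% and 5.85% for epithelial cells. Krt5-gated cells had 11.3% (8.20 to 15.1) and 6.20% (3.59 to 9.88), and leukocyte-gated cells 0 of 17 and 0 of 5. Of the 14 genes 6 were at least 1.5-fold higher in the Dll1+ cells and 0 lower, beside 17.4% and 5.84% of all genes. In the Epcam-free cells 8 were higher and 0 lower, beside 19.1% and 5.44% of all genes. Top2a was at 114 and 69.0 CPM (log2 0.72, and 0.87 in the Epcam-free cells) and Cenpf at 68.3 and 34.5 CPM (log2 0.97, and 1.38 in the Epcam-free cells). Cells with smooth muscle genes had thinned shares of 17.9% (9.61 to 29.2) and 14.8% (6.62 to 27.1), and the other cells 11.3% (7.55 to 15.9) and 7.08% (3.11 to 13.5).

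The 12 genes with the highest ratios included Cxcl5, Mia, Car12, Atp6v1b1, Cxcl9, Ednrb, Gbp4, Mnd1, Itih5, Hopx and Vtn. In the Epcam-free cells Atp6v1b1 had a log2 ratio of 1.34 (-1.02 to 7.35) on 8 and 1 UMIs. The others named had 1.86 or more, for Cxcl5, Mia and Car12 on few UMIs. Hopx, a homeodomain-only protein, was at 62.8 and 10.3 CPM (log2 2.5; 2.03 in the Epcam-free cells). Itih5, which binds hyaluronan in the matrix, was at 129 and 20.6 CPM (log2 2.59; 2.35 in the Epcam-free cells). In cells with smooth muscle genes it was at 26.5 and 20.3 CPM (log2 0.37), and in the other mural cells at 172 and 20.8 CPM. Fibroblast-gated cells carried more of it, 268 and 351 CPM, in the opposite order. Mnd1 was at 113 and 17.5 CPM (log2 2.61; 2.15 in the Epcam-free cells) and Gbp4, an interferon-induced GTPase, at 22.3 and 2.42 CPM (log2 2.77; 1.86 in the Epcam-free cells). Cxcl5 had 145 and 1 UMIs, and 22 and 1 in the Epcam-free cells. Mia, Car12 and Atp6v1b1 had 159, 98 and 89 UMIs in all Dll1+ mural cells and 8, 5 and 8 in the Epcam-free ones. Epithelial-gated cells showed the same order, with Cxcl5 at 116 and 0.104 CPM and Mia at 213 and 6.52 CPM. In them Car12 was at 162 and 20.5 CPM and Atp6v1b1 at 145 and 9.14 CPM. The part of epithelial RNA in the mural values of these genes was not tested further.

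The 12 genes with the lowest ratios included the milk proteins Csn2, Wap, Csn1s1 and Lalba, and the acute-phase proteins Saa1, Saa2 and Lrg1, beside S100a8, Bpifb5, Muc4, Thrsp and Prtn3. Csn2, a casein, had 0 UMIs in the Dll1+ cells, which allows up to 1.11 CPM, and 129 in 10 Dll1- cells. Epithelial-gated cells had 1.02 and 207 CPM of it. In the Epcam-free mural cells 0 and 2 UMIs remained. Saa1 was at 12.3 and 371 CPM, and at 6.69 and 6.61 CPM in the Epcam-free cells. Wap had 4 and 114 UMIs, and 0 in both libraries in the Epcam-free cells.

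**Figure D5:**
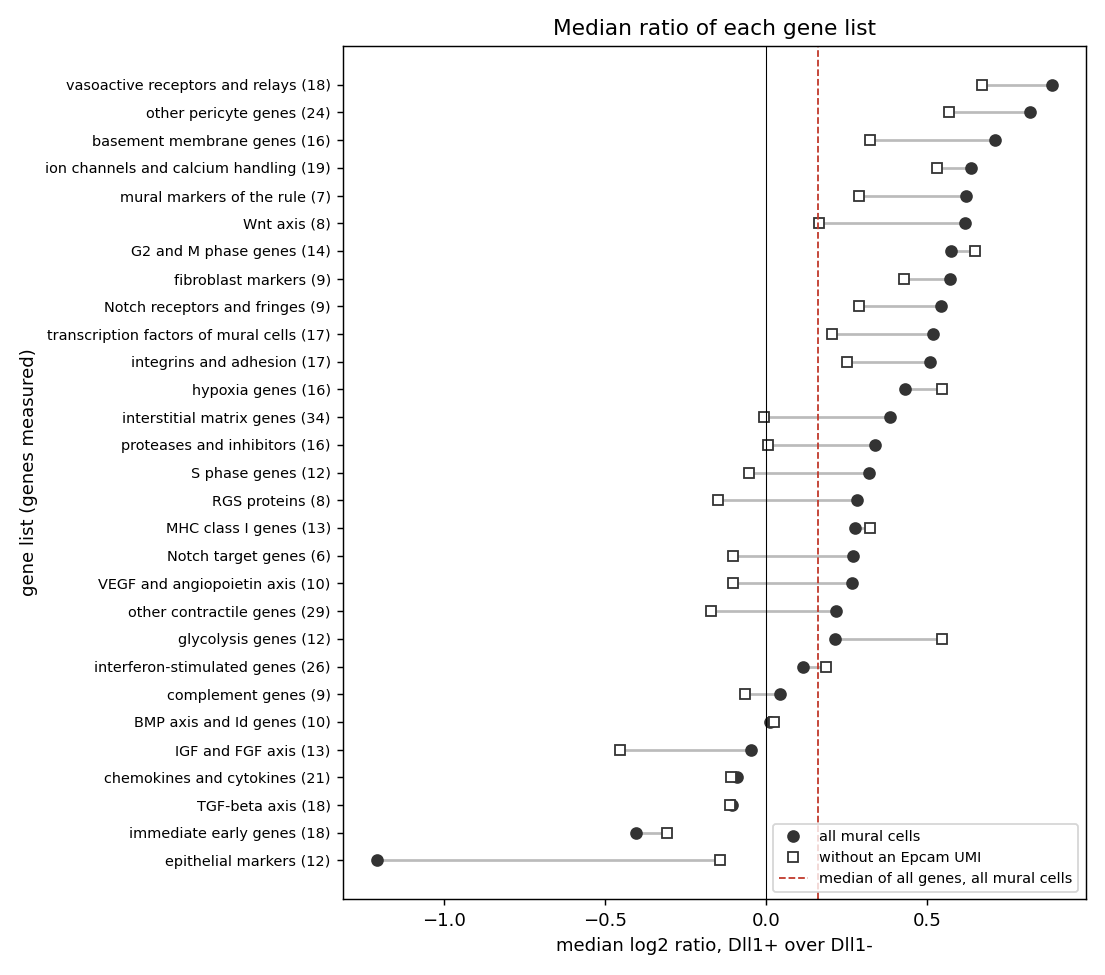
Median log2 ratio of Dll1+ over Dll1- mural cells (x axis) for each gene list with at least 6 genes measured (rows, number measured in parentheses), for all mural cells (filled) and those without an Epcam UMI (open); the dashed line is the median of all genes, 0.16. Vasoactive genes move from 0.89 to 0.67, contractile genes from 0.22 to -0.17 and epithelial markers from -1.21 to -0.14.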

How the data were processed

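Droplet single-cell RNA was counted as UMIs in 1 library of CD45-negative live cells from each of 2 tumors. The deposited matrices hold counts of UMIs per gene and barcode; per the file headers the software was Cell Ranger 4.0.0, with mm10 named in the submitters' processing notes. Counts were used as deposited. From them, summed UMIs were converted to counts per 1000000 UMIs (CPM) and to log2 ratios of CPM plus 1; neither CPM nor log2 values were deposited by the authors. Gene positions came from an mm10 annotation, which matched 32235 of 32285 gene IDs.

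Members were the barcodes that met the marker rule. Comparison classes were gated on their own markers and on low Rgs5. Members and gene lists were chosen with earlier results of these data known. With 1 library a group no test was possible, and intervals cover counting error only. Genes counted as measured at a mean of at least 10 CPM, as higher or lower at 2-fold, and in lists at 1.5-fold. Named genes were the rule markers, the 3 genes of the split, members of the lists, the 12 highest and 12 lowest ratios of each comparison and the 15 leading genes. From those highest and lowest ratios only, mitochondrial, ribosomal protein, unnamed, Xist and Y-linked genes were left out, and so was any gene that another class held at over 5 times the level, or whose ratio changed sign between cells with and without smooth muscle genes. Doublets were kept in the main values and removed in an alternative by a neighbour score on simulated doublets at 0.8% per 1000 barcodes. To compare depths, cells were thinned to 2000 UMIs. Python 3.11.15, numpy 2.4.6, scipy 1.17.1, pandas 2.3.3 and scikit-learn 1.9.0 were used, and the ratio steps were tested on simulated data. Some genes that the rule names are not reported here.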

Additional observations from a re-analysis of the deposited data

Results flagged for a closer look

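For 10 genes of the lists, the ratio of mural cells with over without smooth muscle genes had opposite signs in the 2 libraries; the difference was not tested, and each library is 1 sample. In log2, Dll1+ then Dll1-, the cytokine Il6 had -1.66 and 1.05, and was found in 9 of 68 Dll1+ and 22 of 54 Dll1- cells with smooth muscle genes. The chemokine Cxcl10 had -1.99 and 0.64 and Id2, an inhibitor of helix-loop-helix factors, -1.75 and 1.11. Csf3, a growth factor of neutrophils, went the other way with 1.49 and -0.69.

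The other genes, several of them known from fibroblasts, rested on few Dll1- cells. Mmp3 had -2.51 and 4.89, with 74 of 75 Dll1- UMIs in 1 cell. Cxcl12 had -1.5 and 4.26 (32 of 36 UMIs in 1 cell), and Cxcl14 -1.18 and 3.64 (39 UMIs in 1 cell). Dcn had -1.80 and 0.94 (63 of 86 UMIs in 1 cell) and Igfbp3 -1.22 and 2.16 (16 of 22). Lum had -2.83 and 1.34, with 17 UMIs in 2 Dll1- cells.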

How the results depend on the processing

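No paired analysis was possible because each group is 1 library. Across the alternatives, 52 summary values stayed within their margin and 36 moved; of single values 1200 stayed, 201 moved and 9 turned sign. Mural shares (2.99% and 1.56%) were 2.59% and 1.28% at 10 Rgs5 UMIs, 3.52% in the Dll1+ library at 10% mitochondrial UMIs, 1.33% in the Dll1- library without doublets, 1.10% there with barcodes thinned before the rule, and 2.17% and 1.09% without Epcam cells. Shares with smooth muscle genes were 10.4% and 13.3% at 10 UMIs. Counts of genes 2-fold higher and lower in Dll1+ mural cells (419 and 199) were 981 and 361 after thinning, 154 and 113 with 10 CPM added, and 1434 and 739 with no CPM minimum. Higher genes were 271 with TMM factors, and lower genes 106 without doublets and 123 without Epcam cells. Counts for the smooth muscle split (25 and 49) were 53 and 123 without doublets, 51 and 158 without Epcam cells, 126 and 318 after thinning, 11 and 10 with 10 CPM added, and 128 and 273 with no minimum; lower genes were 141 at 10 smooth muscle UMIs. Of the list medians 9 passed 1.5-fold, and 4 did without doublets or with TMM factors. In alternatives chosen after seeing the data, cells without Epcam or over 2 Krt8 and Krt18 UMIs gave shares of 2.01% and 1.01% and split counts of 66 and 170, and requiring the counting interval off 1 left 32 lower split genes. Signs turned for the epithelial list (0.73) and Saa1 (0.18) and Bpifb5 (0.57) without doublets, for Saa1 (0.015) and Bpifb5 (0.69) without Epcam cells, for Bpifb5 (0.75) in the added alternative (each Bpifb5 value on 1 UMI), for the Wnt list (-0.10 thinned, -0.69 with no minimum) and for Kcnk3 in the split (-1.40 thinned, on part of its 44 and 15 UMIs). The causes were not tested.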

Other observations

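Other gene groups in mural cells are given as values, Dll1+ over Dll1- and at 1.5-fold, which 17.4% of all genes passed upward and 5.84% downward (19.1% and 5.44% in the Epcam-free cells). Transcription factors known from mesenchyme and vessels were 6 higher and 0 lower of 17, and 3 higher and 3 lower of 17 in the Epcam-free cells. Twist1 was at 82.1 and 34.5 CPM (log2 1.23; 1.03 in the Epcam-free cells) and Hic1 at 63.1 and 23.6 CPM (log2 1.38; 1.10 in the Epcam-free cells). Growth factor genes of the IGF and FGF axes were 5 higher and 3 lower of 13, and 4 higher and 5 lower of 13 in the Epcam-free cells. The TGF-beta list was 1 higher and 2 lower of 18, and 4 higher and 5 lower of 18 in the Epcam-free cells. In the smooth muscle split, Tgfb2 had log2 ratios of 1.42 and 0.77, the BMP target Id1 1.79 and 1.14, and the integrin Itga4 1.28 and 1.25, all higher in cells with smooth muscle genes.

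Hypoxia genes were 6 higher and 2 lower of 16, and 8 higher and 1 lower of 16 in the Epcam-free cells, and glycolytic genes 1 higher and 1 lower of 12, and 5 higher and 1 lower of 12 in the Epcam-free cells. Adm, a vasodilator peptide, was at 88.7 and 29.6 CPM (log2 1.55; 1.51 in the Epcam-free cells).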
